A study of Mus musculus with 32 samples.

Results

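The genes described here mark the crypts of the small intestine, where the epithelium is renewed. They were 6 markers of crypt stem cells (*Lgr5*, *Olfm4*, *Ascl2*, *Smoc2*, *Axin2*, *Sox9*) and 34 genes of the cell cycle. The list of 40 was set by name, with earlier results of these data known. The platform annotation assigned 90 probe sets to 39 of the 40 genes, among 35067 probe sets that each named 1 of 18195 genes. *Ccnb1* was not analysed here. The 33 cell cycle genes that were measured comprised 18 genes of mitosis, 6 of replication licensing (*Mcm2* to *Mcm7*), 7 of DNA and nucleotide synthesis and 2 cyclins of the G1 phase.

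Total RNA of the whole small intestine was hybridized to Affymetrix 430A and 430B arrays, and the values were log2 signals. The mice were *Fabp2*-/-, *Fabp6*-/-, *Fabp2*-/-;*Fabp6*-/- and wild type (WT), all on the C57BL/6J background, 10 weeks old, fasted and fed a standard diet without any treatment. Each genotype was represented by females and males, and each of the 8 groups by 2 pools of RNA from 2 mice. The targeted genes were disrupted in every cell of the body, and the line that lacked both came from interbreeding the single lines. Both encode cytoplasmic proteins of absorptive cells, *Fabp2* one that binds fatty acids and *Fabp6* one that binds bile acids, and the study asked how their loss altered the intestinal transcriptome of each sex.

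At the base of each crypt, stem cells that carry the receptor Lgr5 divide under the influence of Wnt signals, and their daughters pass through several divisions in the lower crypt before they differentiate and move onto the villus. Dividing cells switch on gene sets in sequence. Licensing factors and nucleotide enzymes serve the copying of DNA and are controlled largely by E2F factors, and the mitotic genes follow later. Their promoters often hold CHR elements, contacted by complexes that contain MuvB (DREAM among them), and CCAAT boxes, bound by the factor NF-Y.

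A signal from whole tissue cannot tell fewer crypt cells apart from less RNA in each of them. Median signals were 6.57 to 6.62 for the 430A arrays and 5.89 to 5.92 for the 430B arrays. *Fabp2* measured 8.98 to 9.98 in its 8 null pools against 12.58 to 13.05 elsewhere, and *Fabp6* measured 4.80 to 5.04 in 7 of its 8 null pools against 10.50 to 11.32 elsewhere. The library labelled *Fabp6*-/- female replicate 2 had 9.21 for *Fabp6*, and the counts and medians that rest on it are also given without it, beside the results for *Fabp6*-/- mice and for the sexes. Over 100 probe sets present on both chips, 14 of the 16 pools correlated best with their own second chip, and *Fabp2*-/- female replicate 1 and WT female replicate 2 did not. The first correlated at 0.462 with its own second chip and best with *Fabp2*-/- male replicate 2. The second correlated at 0.203 with its own and best with WT male replicate 1. Values of these pools on 430B, those of *Olfm4* and of *Mcm5* on that chip among them, rest on these arrays. *Fabp2*-/- male replicate 1 had the highest mean deviation of B cell markers, 0.92 on the log2 scale against -0.06 in the second pool of its group.

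The promoters of 4 members described below are shown: *Top2a* and *Ube2c* for mitosis, *Mcm5* for licensing and *Olfm4* for the stem markers. Of these, only *Mcm5* was called with all pools at the thresholds of the study. *Ccnd1*, the other member so called, had no promoter in the reference used. Each is the RefSeq sequence of mouse build GRCm38.p6 from 250 bases before to 50 bases after the start of the gene, 5′ to 3′ on the strand of the gene. The positions are chr11:99024140-99024439 for *Top2a* (minus strand), chr2:164769679-164769978 for *Ube2c*, chr8:75109259-75109558 for *Mcm5* and chr14:80000052-80000351 for *Olfm4* (plus strand). Capitals mark matches on either strand to the CCAAT box (CCAAT), the CHR element (TTTGAA) or an E2F site (TTTGGCGC or TTTCCCGC).
Top2a: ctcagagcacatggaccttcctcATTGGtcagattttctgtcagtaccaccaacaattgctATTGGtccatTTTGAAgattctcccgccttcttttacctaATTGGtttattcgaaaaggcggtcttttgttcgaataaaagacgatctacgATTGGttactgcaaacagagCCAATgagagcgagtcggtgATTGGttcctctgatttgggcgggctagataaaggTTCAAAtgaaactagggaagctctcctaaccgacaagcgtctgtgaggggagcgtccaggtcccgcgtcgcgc
Ube2c: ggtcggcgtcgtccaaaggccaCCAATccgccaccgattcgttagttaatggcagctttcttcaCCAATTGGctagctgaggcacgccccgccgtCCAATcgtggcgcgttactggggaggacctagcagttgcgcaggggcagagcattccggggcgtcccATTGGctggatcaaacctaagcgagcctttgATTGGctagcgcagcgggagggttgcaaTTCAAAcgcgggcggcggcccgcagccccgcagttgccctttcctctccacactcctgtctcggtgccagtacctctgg
Mcm5: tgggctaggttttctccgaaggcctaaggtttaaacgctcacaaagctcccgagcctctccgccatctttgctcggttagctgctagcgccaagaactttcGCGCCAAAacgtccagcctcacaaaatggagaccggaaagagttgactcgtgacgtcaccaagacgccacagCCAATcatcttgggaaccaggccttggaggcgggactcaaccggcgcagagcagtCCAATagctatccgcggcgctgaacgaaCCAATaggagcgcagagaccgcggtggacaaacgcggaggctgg
Olfm4: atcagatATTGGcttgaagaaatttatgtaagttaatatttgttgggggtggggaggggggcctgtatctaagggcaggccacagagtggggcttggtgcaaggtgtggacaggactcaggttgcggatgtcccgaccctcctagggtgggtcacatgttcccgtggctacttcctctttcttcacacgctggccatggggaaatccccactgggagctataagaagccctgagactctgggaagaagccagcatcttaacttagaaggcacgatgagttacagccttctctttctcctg

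*Top2a* and *Ube2c* each held 6 CCAAT boxes, of which 2 overlap in *Ube2c*, and a CHR element close to the start, at position -23 in *Top2a* and -29 in *Ube2c*. *Mcm5* held 3 CCAAT boxes and 1 E2F site at -149, and *Olfm4* held 1 CCAAT box alone. Promoters were found for 32 of the 40 listed genes. A CCAAT box and a CHR element together occurred in 11 of 16 mitosis genes (68.8%) and in 1 of 5 licensing genes, against 8.97% of 27025 genes. An E2F site occurred in 4 of 5 licensing genes, in *Hells* and in none of the 16 mitosis genes, against 1.80% of all genes. Of the 3 stem markers with a promoter, all had a CCAAT box, as did 41.1% of all genes, and none had either other motif. A match is a description of these letters and not evidence of binding.

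**Figure D1:**
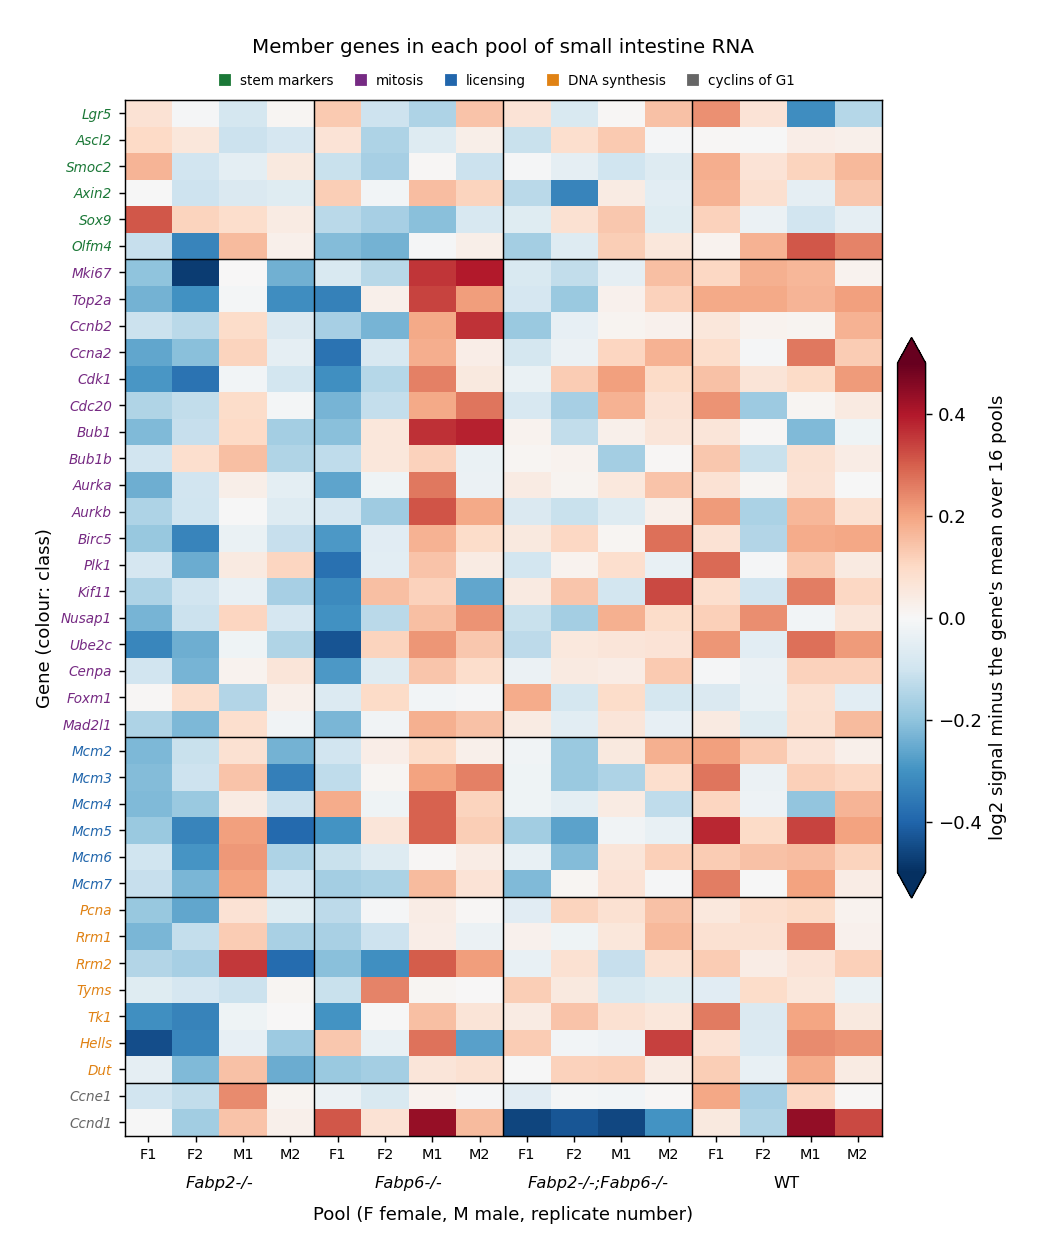
Log2 signal of each member gene (rows, coloured by class) in each of the 16 pools (columns, grouped by genotype and sex), as the deviation from the gene's mean over the pools. The cell cycle genes are lowest in both pools of *Fabp2*-/- females and in *Fabp6*-/- female pool 1. They are high in *Fabp6*-/- males and likewise in WT males and WT female pool 1. The stem markers other than *Olfm4* do not follow them.

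Across the 16 pools, the cell cycle genes moved together, and of the stem markers *Olfm4* followed them most closely. The mean deviation of the 33 cell cycle genes was -0.17 and -0.19 in the pools of *Fabp2*-/- females, 0.07 and -0.12 in *Fabp2*-/- males, -0.17 and -0.04 in *Fabp6*-/- females and 0.18 and 0.09 in *Fabp6*-/- males. It was -0.04 in both pools of *Fabp2*-/-;*Fabp6*-/- females, 0.01 and 0.07 in *Fabp2*-/-;*Fabp6*-/- males, 0.13 and -0.00 in WT females and 0.13 and 0.10 in WT males. The 3 lowest values were in females that lacked 1 *Fabp* gene. As a description over 16 pools that share arrays between genes, the mean correlation of pairs of cell cycle genes was 0.478, that of the 6 stem markers with each other 0.134 and that of a stem marker with a cell cycle gene 0.0407, beside 0.0164 for all pairs of genes on 430A. *Olfm4* (430B) averaged 0.478 with the cell cycle genes, and the 5 stem markers of 430A without it averaged -0.0468. With the group means removed, pairs of cell cycle genes averaged 0.301, pairs of stem markers 0.240, pairs across the classes -0.0869 and all pairs on 430A 0.0228. *Olfm4* then averaged 0.0135 with the cell cycle genes, so that it followed them between groups but not between pools of a group.

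*Top2a*, the topoisomerase that untangles DNA before mitosis, followed the mean of the other cell cycle genes most closely (r = 0.917, n = 16 pools), followed by the cyclin gene *Ccna2* (0.900), *Ube2c* (0.895) and *Mcm5* (0.880). *Ccnd1* (0.269), *Tyms* (0.0570) and *Foxm1* (-0.272) followed it least, and *Tyms* and *Foxm1* were dim, with median signals of 4.15 and 3.36. Among the stem markers, *Olfm4* followed the cell cycle genes (0.685), *Axin2* (0.368) and *Smoc2* (0.226) did so weakly, and *Ascl2* (-0.215), *Lgr5* (-0.267) and *Sox9* (-0.393) ran the other way. Signals of different probe sets do not give the order of transcript levels, and 31 of the 90 probe sets had a mean below 6.

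**Figure D2:**
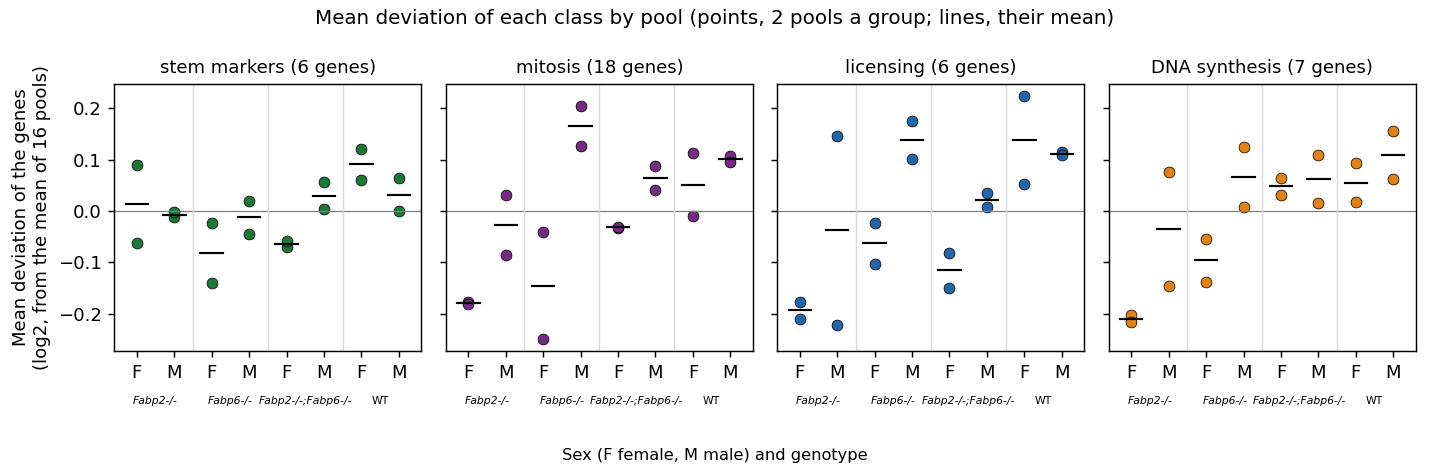
Mean log2 deviation of the genes of each class from their own mean over 16 pools (y axis), by sex and genotype (x axis). Points are the 2 pools of a group and lines their mean. Mitosis, licensing and DNA synthesis genes were all low in both pools of *Fabp2*-/- females, where the stem markers were at 0.09 and -0.06. The lowest mitosis pool was *Fabp6*-/- female pool 1 (-0.25) and the lowest licensing pool *Fabp2*-/- male pool 2 (-0.22).

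The loss of *Fabp2* was compared with WT first in both sexes together, as the mean of the female and the male difference. Of the 33 cell cycle genes, 32 had a difference below 0, with a median of -0.17 on the log2 scale, against a median of 0.0045 over all 18195 genes. All 6 licensing genes and all 7 genes of DNA synthesis were on the low side (medians -0.22 and -0.17), as were 17 of 18 mitosis genes (median -0.16). The 6 stem markers had a median of -0.07 with 4 below 0. In all, 29 of 33 cell cycle genes were lower than WT in females and in males alike, against 26.8% of all genes.

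A gene was called where the adjusted p of limma was under 0.2 and the absolute log2 difference over 0.5, the thresholds of the study. No member was called for *Fabp2*-/- over both sexes, where 0.676% of all genes were. At an unadjusted p under 0.05, 18 cell cycle genes passed (17 lower, 1 higher) and 1 stem marker, *Olfm4* (lower), beside 15% of all genes in either direction. At an adjusted p under 0.2 with no limit on the fold, a threshold added after the data were seen, 10 of 39 members passed, 9 of them lower, beside 7.43% of all genes. The 9 were *Birc5*, *Cdk1*, *Hells*, *Mcm5*, *Mki67*, *Olfm4*, *Tk1*, *Top2a* and *Ube2c*. *Aurka*, a mitotic kinase, was higher by 0.21 on its dim 430B probe set (adjusted p = 0.0524 by limma) while its 430A probe set had -0.13 (adjusted p = 0.669).

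*Top2a* had signals of 7.62 and 7.56 in *Fabp2*-/- females and 7.85 and 7.55 in *Fabp2*-/- males, against 8.05 and 8.05 in WT females and 8.03 and 8.07 in WT males. The 4 *Fabp2*-/- pools all lay below the 4 WT pools. The difference was -0.40 ± 0.08 (SE, 4 pools each, limma adjusted p = 0.017), a level of 0.756 of that in WT. Its probe set on 430B had a difference of -0.18 (limma adjusted p = 0.0808). On that chip the pools overlapped, since *Fabp2*-/- male pool 2 (6.85) lay above WT female pool 1 (6.82).

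*Mki67*, which encodes the proliferation antigen Ki-67, and *Cdk1*, the kinase that starts mitosis, were chosen for the text after their values were seen. *Mki67* had 7.69 and 7.42 in *Fabp2*-/- females and 7.89 and 7.65 in *Fabp2*-/- males, against 7.99 and 8.07 in WT females and 8.06 and 7.91 in WT males (difference -0.35 ± 0.08, limma adjusted p = 0.0294). *Cdk1* had 8.16 and 8.09 in *Fabp2*-/- females and 8.44 and 8.36 in *Fabp2*-/- males, against 8.60 and 8.52 in WT females and 8.55 and 8.67 in WT males (-0.32 ± 0.07, adjusted p = 0.0269). Neither gene overlapped between the 4 *Fabp2*-/- and the 4 WT pools. *Cdk1*, *Mki67* and *Top2a* were the 3 of 33 cell cycle genes with all *Fabp2*-/- pools below all WT pools, and no stem marker was, beside 3.46% of all genes.

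*Ube2c*, which directs cyclins to destruction at the end of mitosis, had 8.01 and 8.09 in *Fabp2*-/- females and 8.32 and 8.19 in *Fabp2*-/- males, against 8.56 and 8.28 in WT females and 8.61 and 8.55 in WT males. Its pools overlapped, since WT female pool 2 lay below *Fabp2*-/- male pool 1, and the difference was -0.35 ± 0.10 (limma adjusted p = 0.106).

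Among the licensing genes, whose products form the helicase that opens DNA for copying, *Mcm5* differed most. On 430B it had 7.21 and 7.23 in *Fabp2*-/- females and 7.92 and 7.33 in *Fabp2*-/- males, against 7.91 and 7.72 in WT females and 8.01 and 7.81 in WT males. Only *Fabp2*-/- male pool 1 reached the WT range. The difference over both sexes was -0.44 ± 0.10 (limma adjusted p = 0.0284), and the 430A probe set gave -0.43 ± 0.11 (adjusted p = 0.0754). Its partner *Mcm3* had 6.45 and 6.56 in *Fabp2*-/- females and 6.81 and 6.32 in *Fabp2*-/- males, against 6.93 and 6.64 in WT females and 6.79 and 6.77 in WT males, with overlapping pools and -0.25 ± 0.10 (adjusted p = 0.36). It had 6.54 and 6.68 in *Fabp6*-/- females, 6.86 and 6.92 in *Fabp6*-/- males, 6.64 and 6.48 in *Fabp2*-/-;*Fabp6*-/- females and 6.51 and 6.75 in *Fabp2*-/-;*Fabp6*-/- males, and these overlapped with WT as well.

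For DNA synthesis, *Tk1*, thymidine kinase, had 7.80 and 7.77 in *Fabp2*-/- females and 8.08 and 8.11 in *Fabp2*-/- males, against 8.36 and 8.03 in WT females and 8.30 and 8.15 in WT males (-0.27 ± 0.08, limma adjusted p = 0.136). *Hells*, a chromatin remodeller of dividing cells, had 5.40 and 5.52 in *Fabp2*-/- females and 5.80 and 5.67 in *Fabp2*-/- males, against 5.92 and 5.78 in WT females and 6.08 and 6.07 in WT males (-0.36 ± 0.10, adjusted p = 0.121). *Fabp2*-/- male pools overlapped with WT for both genes. The 430B probe set of *Hells* had a difference of -0.02 (adjusted p = 0.9). *Tk1* had 7.81 and 8.11 in *Fabp6*-/- females, 8.26 and 8.17 in *Fabp6*-/- males, 8.15 and 8.25 in *Fabp2*-/-;*Fabp6*-/- females and 8.18 and 8.16 in *Fabp2*-/-;*Fabp6*-/- males. *Hells* had 5.98 and 5.81 in *Fabp6*-/- females, 6.12 and 5.58 in *Fabp6*-/- males, 5.97 and 5.83 in *Fabp2*-/-;*Fabp6*-/- females and 5.82 and 6.19 in *Fabp2*-/-;*Fabp6*-/- males, so that both genes overlapped with WT in these mice. The G1 cyclin gene *Ccne1* had 6.42 and 6.39 in *Fabp2*-/- females and 6.75 and 6.53 in *Fabp2*-/- males, against 6.71 and 6.35 in WT females and 6.62 and 6.52 in WT males, and its groups overlapped. It had 6.49 and 6.44 in *Fabp6*-/- females, 6.53 and 6.51 in *Fabp6*-/- males, 6.46 and 6.51 in *Fabp2*-/-;*Fabp6*-/- females and 6.50 and 6.52 in *Fabp2*-/-;*Fabp6*-/- males, all within the WT range.

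In females alone, *Mcm5* fell by 0.59 ± 0.15 on the log2 scale in *Fabp2*-/- against WT mice (430B, n = 2 pools each, limma adjusted p = 0.0537) and was the only member called, beside 0.786% of all genes. On 430A its difference was -0.49 (limma adjusted p = 0.319). The call on 430B included *Fabp2*-/- female replicate 1 and WT female replicate 2, which did not correlate best with their own second chip. The cell cycle genes had a median of -0.24 with 32 of 33 below 0, and 15 of them passed an unadjusted p under 0.05, each lower, with *Olfm4* as the only stem marker, beside 12.7% of all genes. With no limit on the fold, *Cdk1*, *Mcm5*, *Mki67*, *Olfm4*, *Tk1* and *Top2a* passed, beside 4.47% of all genes. In males the median was -0.11 with 30 of 33 below 0, and 0 members were called by limma, beside 0.687%. There 8 members passed an unadjusted p under 0.05, 7 lower and *Aurka* higher, beside 9.51%.

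The female and the male difference of *Fabp2*-/- mice were compared through the interaction of sex and genotype. 0 members were called by limma, beside 0.022% of all genes, and 1 passed an unadjusted p under 0.05, beside 6.34%. Leaving out *Fabp2*-/- male pool 1 raised the number of lower members to 14 over both sexes at an adjusted p under 0.2 with no limit on the fold, beside 4.86% of all genes in either direction, and *Mcm5* was then called. The number was 5 without *Fabp2*-/- female pool 1 (5.51%), *Fabp2*-/- male pool 2 (5.93%), WT female pool 1 (6.1%) or WT male pool 1 (4.25%), and in females alone 1 to 4 without 1 pool, beside 2.16% to 3.65%. *Fabp2*-/- male pool 1 was higher than the second pool of its group in 28 of 33 cell cycle genes, beside 46.3% of all genes. In WT females the first pool was higher in 25 of 33, beside 56.9% of all genes. The B cell markers of *Fabp2*-/- male pool 1 were at 0.92 and its germinal centre markers at 0.41. They were at -0.06 and -0.15 in the second pool of its group, and their part in the result was not tested. *Cdk1*, *Mki67*, *Olfm4*, *Top2a* and *Mcm5* (430B) kept an adjusted p under 0.2 without each of the 8 pools in turn. All 5 markers of smooth muscle were also lower in *Fabp2*-/- than in WT females (median -0.32, 4 of 5 at an unadjusted p under 0.05), with mean deviations of -0.26 to 0.07 against 0.14 to 0.37, and their part was not tested.

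**Figure D3:**
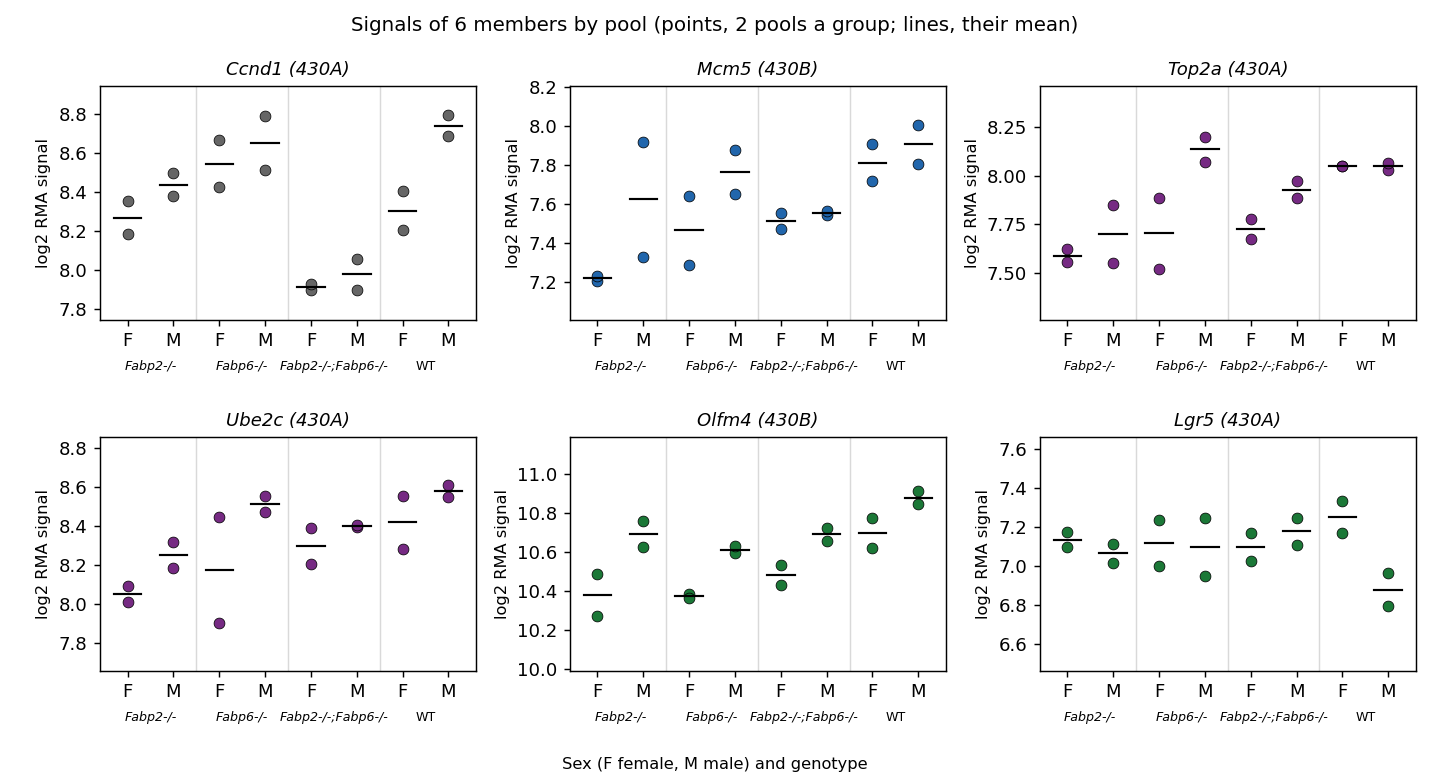
Log2 signal (y axis) of *Ccnd1*, *Mcm5*, *Top2a*, *Ube2c*, *Olfm4* and *Lgr5* on the chip named above each panel, by sex and genotype (x axis). Points are the 2 pools of a group and lines their mean. *Ccnd1* lies at 7.90 to 8.06 in the *Fabp2*-/-;*Fabp6*-/- pools against 8.20 to 8.79 in WT, and *Olfm4* is lower in females than in males of each genotype.

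Without both genes, the clearest difference was that of *Ccnd1*, which encodes cyclin D1, the partner of the kinases that drive cells through G1 and a target of Wnt signalling. Its signals were 7.90 and 7.93 in *Fabp2*-/-;*Fabp6*-/- females and 7.90 and 8.06 in *Fabp2*-/-;*Fabp6*-/- males, against 8.40 and 8.20 in WT females and 8.79 and 8.69 in WT males. All 4 pools lay below the 4 WT pools, the nearest being separated by 8.06 and 8.20. Over both sexes *Ccnd1* fell by 0.58 ± 0.08 (SE, limma adjusted p = 0.00052), to 0.670 of its level in WT, and was the only member called, beside 0.967% of all genes. In males it fell by 0.76 ± 0.12 (adjusted p = 0.00134), to 0.589 of the WT level, and was the only member called there, beside 1.6%. In females the difference was -0.39 ± 0.12 (adjusted p = 0.159), under the fold required, and 0 members were called by limma, beside 0.929%.

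The 3 probe sets of *Ccnd1* had differences of -0.21, -0.58 and -0.48 over both sexes in *Fabp2*-/-;*Fabp6*-/- mice. The call held without each of the 8 pools in turn (-0.63 to -0.53), but not on the probe set of highest mean signal (-0.48, adjusted p = 0.000152), which missed the limit on the fold. In mice that lacked 1 gene the difference did not pass, and it was not tested against that of *Fabp2*-/-;*Fabp6*-/- mice. *Ccnd1* had 8.35 and 8.18 in *Fabp2*-/- females and 8.50 and 8.38 in *Fabp2*-/- males (difference from WT -0.17, adjusted p = 0.521), and 8.67 and 8.43 in *Fabp6*-/- females and 8.79 and 8.51 in *Fabp6*-/- males (0.08, adjusted p = 0.782). The difference of *Fabp2*-/-;*Fabp6*-/- mice was larger in males than in females by 0.37 on the log2 scale, but this interaction did not pass adjustment (unadjusted p = 0.0383, limma adjusted p = 0.539). Markers of other cell types were called in the same mice. Of 5 T cell markers, all were below WT over both sexes and *Cd8a* (-0.69, adjusted p = 3.0e-05) and *Cd3g* (-0.58, adjusted p = 0.00972) were called, with mean deviations of -0.19 to -0.11 in *Fabp2*-/-;*Fabp6*-/- females and -0.25 in both pools of *Fabp2*-/-;*Fabp6*-/- males, against -0.01 to 0.10 in WT females and 0.13 to 0.16 in WT males. Of 6 gastric markers, *Gkn1* (1.51), *Gkn2* (1.34), *Tff1* (0.95) and *Muc5ac* (0.75) were called higher, with mean deviations of 0.19 to 0.72 in *Fabp2*-/-;*Fabp6*-/- females and 0.01 to 0.54 in *Fabp2*-/-;*Fabp6*-/- males, against -0.54 to -0.06 in WT females and -0.99 to -0.08 in WT males. Their part in the results for *Fabp2*-/-;*Fabp6*-/- mice was not tested.

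The other cell cycle genes differed little in *Fabp2*-/-;*Fabp6*-/- mice, with a median over all 33 of -0.05 (27 below 0). Licensing genes had a median of -0.16 with 6 of 6 below 0, mitosis genes one of -0.06 and DNA synthesis genes one of -0.01. *Mcm5* had 7.47 and 7.55 in *Fabp2*-/-;*Fabp6*-/- females and 7.54 and 7.57 in *Fabp2*-/-;*Fabp6*-/- males on 430B (WT values as above), -0.33 ± 0.10 from WT (limma adjusted p = 0.0866), and its 430A probe set gave -0.38 ± 0.11 (adjusted p = 0.0729). *Ube2c* had 8.21 and 8.39 in *Fabp2*-/-;*Fabp6*-/- females and 8.40 and 8.41 in *Fabp2*-/-;*Fabp6*-/- males, within the WT range but for female pool 1. *Top2a* had 7.78 and 7.68 in *Fabp2*-/-;*Fabp6*-/- females and 7.88 and 7.97 in *Fabp2*-/-;*Fabp6*-/- males (-0.22 ± 0.08, adjusted p = 0.175). *Ccnd1*, *Mcm5* (430A), *Top2a* and the stem marker *Smoc2* had all 4 *Fabp2*-/-;*Fabp6*-/- pools below all 4 WT pools, as did 5.11% of all genes. At an unadjusted p under 0.05, 9 members passed over both sexes (7 lower, 2 higher), beside 20.1% of all genes, which is near that share. In females 9 passed, each lower (background 13.9%), and in males 7 passed, 4 lower and 3 higher (15.6%). With no limit on the fold, 6 members were lower (*Axin2*, *Ccnd1*, *Mcm5*, *Olfm4*, *Smoc2*, *Top2a*) and *Aurka* and *Cenpa* were higher on dim 430B probe sets alone, beside 14.3%. The number of lower members was 3 without *Fabp2*-/-;*Fabp6*-/- male pool 2 (9.37% of all genes) or WT female pool 1 (10.7%) and 2 without WT male pool 1 (8.56%).

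**Figure D4:**
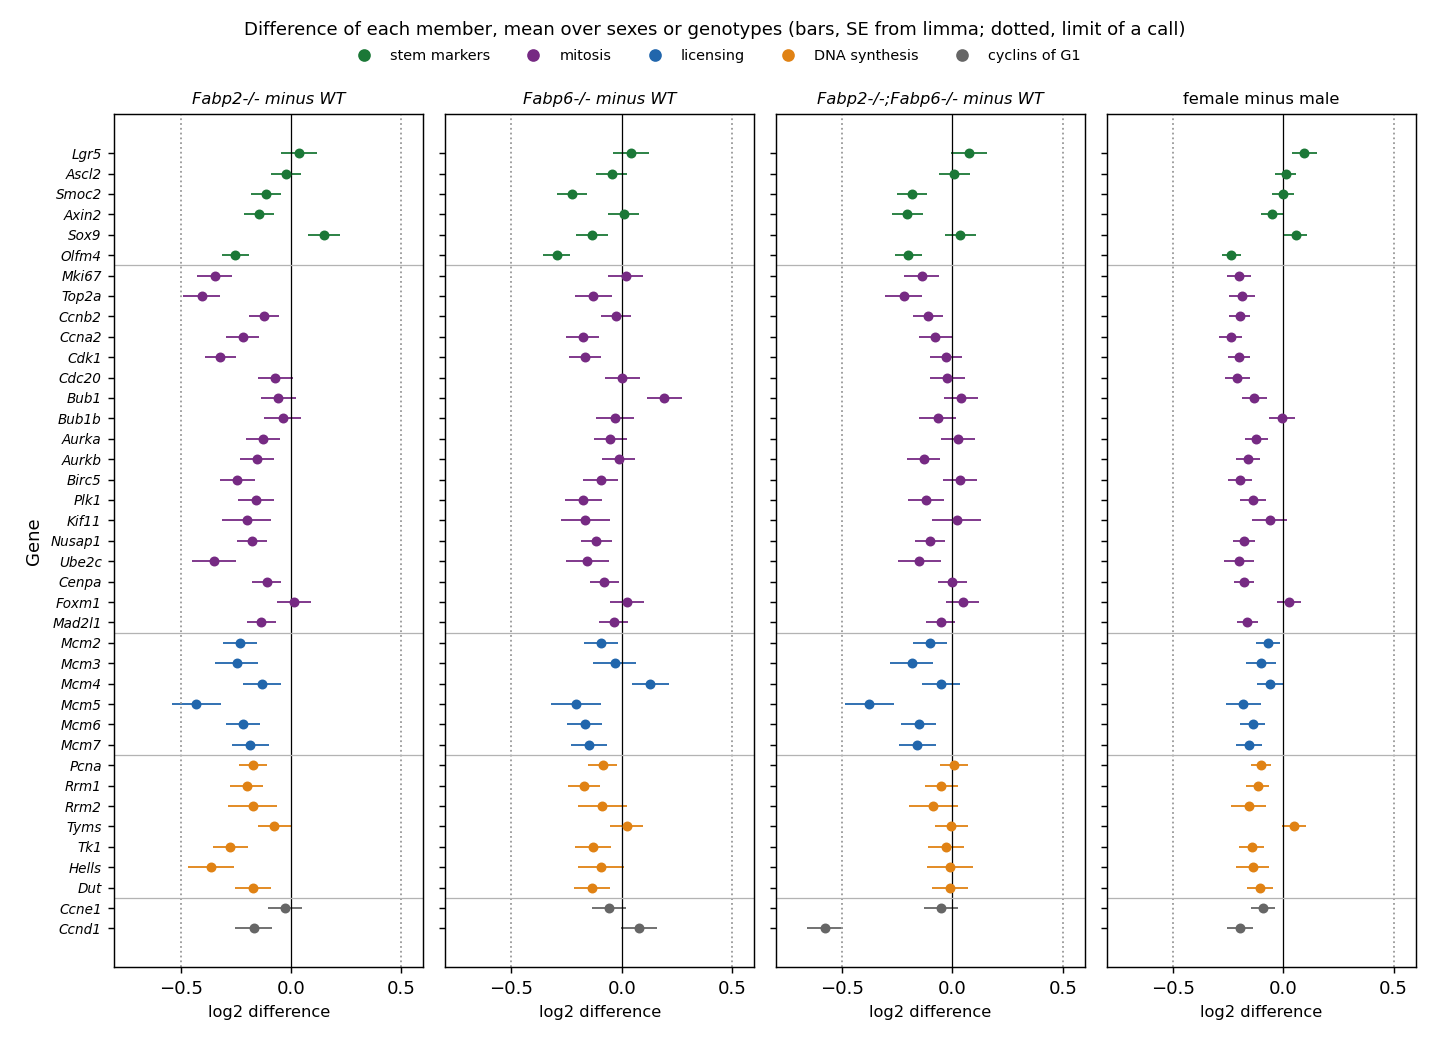
Log2 difference of each member (rows, coloured by class) for *Fabp2*-/-, *Fabp6*-/- and *Fabp2*-/-;*Fabp6*-/- minus WT over both sexes and for females minus males over the 4 genotypes. Bars are the SE from limma and dotted lines the limit of 0.5 for a call. In the *Fabp2*-/- panel 32 of 33 cell cycle genes lie below 0, and *Ccnd1* in the *Fabp2*-/-;*Fabp6*-/- panel is the point past the limit.

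After loss of *Fabp6*, most cell cycle genes were below WT in females but about as many above as below WT in males. In females, 28 of 33 cell cycle genes were below WT with a median of -0.20, and 13 members passed an unadjusted p under 0.05, each lower, beside 10.9% of all genes. In males, 19 of 33 were below WT, with a median of -0.0053. There 4 of 39 members passed (10.3%), beside 11.6% of all genes, which is near that share. *Bub1*, *Cenpa* and *Mki67* were higher and *Olfm4* was lower. *Cenpa* was higher on its dim 430B probe set alone (0.42, limma adjusted p = 0.171), while its brighter 430A probe set averaged 6.95 in *Fabp6*-/- males and 6.95 in WT males (adjusted p = 0.998). *Bub1*, a kinase of the spindle checkpoint with a dim signal, was higher by 0.49 in males (limma adjusted p = 0.127). 0 members were called by limma in females (background 0.451%), in males (0.484%) or over both sexes (0.363%). Over both sexes 10 members passed an unadjusted p under 0.05, 8 lower and 2 higher, beside 15.9% of all genes. Without *Fabp6*-/- female pool 2, 30 of 33 cell cycle genes were below WT in females (median -0.25) and 13 members passed, 12 lower and 1 higher, beside 14.9% of all genes, and over both sexes 13 passed, each lower, beside 18.8%. Of all genes, 51.5% were below WT in females with all pools (median -0.0048) and 56.9% without *Fabp6*-/- female pool 2 (median -0.027). In *Fabp6*-/- mice over both sexes, all 5 smooth muscle markers were below WT (median -0.30, 4 at an unadjusted p under 0.05), and 4 of 6 gastric markers (median 0.97) and the goblet cell gene *Muc2* (0.56) were called higher. Their part in these results was not tested.

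The interaction of sex with *Fabp6* loss was lower in females for 28 of 33 cell cycle genes, with a median of -0.18. 11 members passed an unadjusted p under 0.05, each negative, beside 5.52% of all genes, and 0 were called by limma, beside 0.0055%. The largest was *Bub1* with -0.60 (unadjusted p = 0.0014, adjusted p = 0.964), and *Nusap1*, a spindle protein, had -0.56 (unadjusted p = 0.0008, adjusted p = 0.873). Without *Fabp6*-/- female pool 2, 29 of 33 were lower (median -0.27), 15 members passed, 14 negative and 1 positive, beside 8.56% of all genes, and 0 were called, beside 0.198%. Of all genes, 49.5% had an interaction below 0 with all pools and 53.0% without that pool. For *Fabp2*-/-;*Fabp6*-/- mice 6 members passed the unadjusted threshold, beside 8.4%, and 0 were called, beside 0.0055%.

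The 2 pools of *Fabp6*-/- females differed. Pool 1 was below pool 2, whose *Fabp6* signal went against its label, in 25 of 33 cell cycle genes. Pool 1 was the higher in 8 of 33, beside 43.4% of all genes. Other groups also split between their pools. Pool 1 was the higher in 25 of 33 in WT females (56.9% of all genes) and in 24 of 33 in *Fabp6*-/- males (46.4%). *Top2a* had 7.52 and 7.89 in *Fabp6*-/- females and 8.20 and 8.07 in *Fabp6*-/- males, and *Ube2c* had 7.91 and 8.45 in *Fabp6*-/- females and 8.56 and 8.47 in *Fabp6*-/- males. On 430B, *Mcm5* had 7.29 and 7.64 in *Fabp6*-/- females and 7.88 and 7.65 in *Fabp6*-/- males. *Mki67* had 7.81 and 7.75 in *Fabp6*-/- females and 8.25 and 8.29 in *Fabp6*-/- males, so that its females did not overlap with its males. Leaving out pool 2 left *Fabp6*-/- females with pool 1 alone, whose spread was assumed from the other groups. Without pool 2, *Mcm5*, *Plk1*, *Top2a* and *Ube2c* were called lower in *Fabp6*-/- than in WT females, beside 1.73% of all genes. The count of lower members over both sexes at an adjusted p under 0.2 with no limit on the fold was 3 with all pools (*Olfm4*, *Smoc2* and *Top2a* on 430B, background 7.94%) and 9 without pool 2, beside 11.7% of all genes. It was 1 without *Fabp6*-/- male pool 2 (3.14%) or WT male pool 1 (3.09%).

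**Figure D5:**
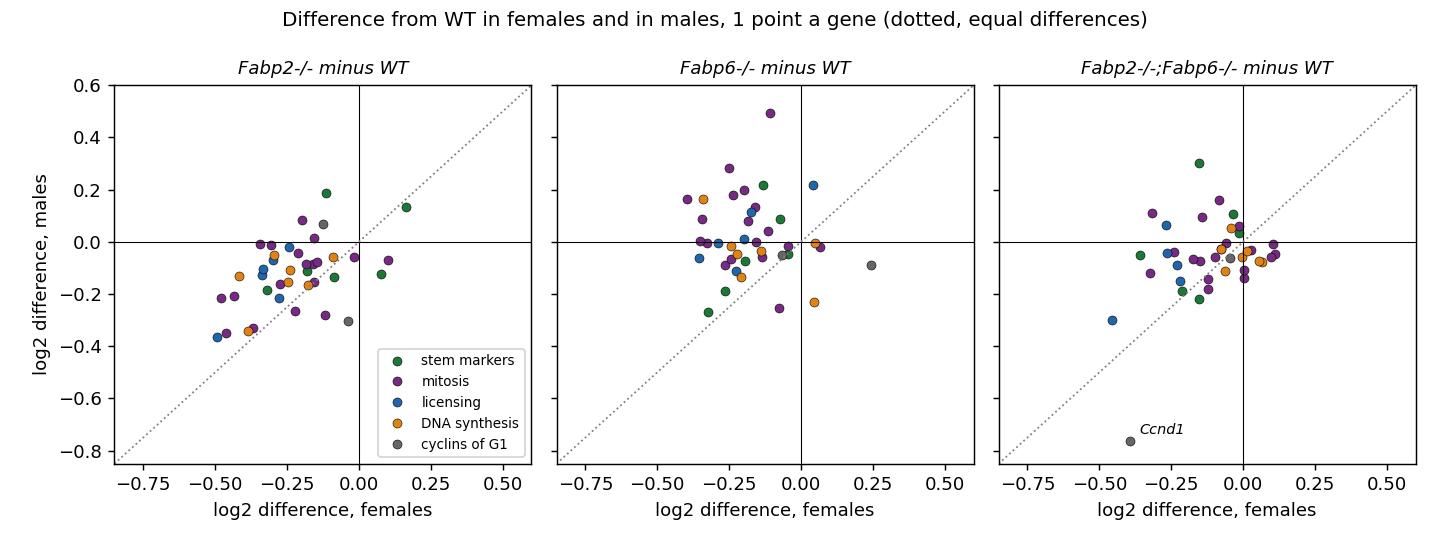
Log2 difference from WT in males (y axis) against that in females (x axis), 1 point a gene, coloured by class, with equal differences along the dotted line. Of the 33 cell cycle genes, 29 lie below 0 on both axes for *Fabp2*-/-, 15 for *Fabp6*-/- and 18 for *Fabp2*-/-;*Fabp6*-/-.

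The 3 comparisons share their WT pools, so that a high WT value would lower all of them. Lower than WT in both sexes were 29 of 33 cell cycle genes for *Fabp2*-/-, 15 for *Fabp6*-/- and 18 for *Fabp2*-/-;*Fabp6*-/-, against 26.8%, 31.6% and 26.6% of all genes. Without *Fabp6*-/- female pool 2 it was 17 for *Fabp6*-/-, against 34.4%.

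Among the stem markers, *Olfm4*, a secreted glycoprotein abundant in crypt base cells, was lower in every comparison with WT. Its signals on 430B were 10.48 and 10.27 in *Fabp2*-/- females and 10.76 and 10.63 in *Fabp2*-/- males. They were 10.38 and 10.36 in *Fabp6*-/- females and 10.59 and 10.63 in *Fabp6*-/- males, and 10.43 and 10.53 in *Fabp2*-/-;*Fabp6*-/- females and 10.72 and 10.66 in *Fabp2*-/-;*Fabp6*-/- males. WT females had 10.62 and 10.78 and WT males 10.91 and 10.85. Within each sex, every pool that lacked a *Fabp* gene lay below both WT pools. The difference over both sexes was -0.25 ± 0.06 for *Fabp2*-/- (limma adjusted p = 0.0325), -0.30 ± 0.06 for *Fabp6*-/- (adjusted p = 0.0211) and -0.20 ± 0.06 for *Fabp2*-/-;*Fabp6*-/- (adjusted p = 0.0733), each under the fold required for a call. Without each of the 8 pools in turn, the adjusted p stayed under 0.2 in 8 of 8 cases for *Fabp2*-/- and for *Fabp6*-/- and in 4 of 8 for *Fabp2*-/-;*Fabp6*-/-.

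*Lgr5*, the receptor that defines the stem cells at the crypt base, did not differ from WT in a comparison that passed adjustment. On 430A it had 7.17 and 7.09 in *Fabp2*-/- females, 7.01 and 7.11 in *Fabp2*-/- males, 7.23 and 7.00 in *Fabp6*-/- females and 6.95 and 7.24 in *Fabp6*-/- males. It had 7.17 and 7.02 in *Fabp2*-/-;*Fabp6*-/- females and 7.11 and 7.25 in *Fabp2*-/-;*Fabp6*-/- males, against 7.33 and 7.17 in WT females and 6.79 and 6.96 in WT males. The differences over both sexes were 0.04 for *Fabp2*-/-, 0.04 for *Fabp6*-/- and 0.07 for *Fabp2*-/-;*Fabp6*-/-, and the groups overlapped. The difference of 0.30 between *Fabp2*-/-;*Fabp6*-/- and WT males did not pass (limma adjusted p = 0.239).

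*Ascl2*, a transcription factor of stem cells, was dim, with signals of 4.63 and 4.59 in *Fabp2*-/- females, 4.43 and 4.45 in *Fabp2*-/- males, 4.60 and 4.38 in *Fabp6*-/- females and 4.47 and 4.56 in *Fabp6*-/- males. It had 4.42 and 4.62 in *Fabp2*-/-;*Fabp6*-/- females and 4.66 and 4.53 in *Fabp2*-/-;*Fabp6*-/- males, against 4.54 and 4.53 in WT females and 4.57 and 4.56 in WT males, and the pools without a *Fabp* gene lay on both sides of the WT pools. *Smoc2*, a matrix protein of the stem cell signature, had 6.56 and 6.30 in *Fabp2*-/- females, 6.34 and 6.44 in *Fabp2*-/- males, 6.28 and 6.23 in *Fabp6*-/- females and 6.40 and 6.28 in *Fabp6*-/- males. It had 6.39 and 6.35 in *Fabp2*-/-;*Fabp6*-/- females and 6.29 and 6.33 in *Fabp2*-/-;*Fabp6*-/- males, against 6.57 and 6.46 in WT females and 6.50 and 6.55 in WT males. All *Fabp6*-/- and all *Fabp2*-/-;*Fabp6*-/- pools lay below the 4 WT pools, and the differences were -0.23 ± 0.07 (limma adjusted p = 0.109) and -0.19 ± 0.07 (adjusted p = 0.17). For *Fabp6*-/-, 1 stem marker and 1 cell cycle gene, *Mcm6*, were thus separated, beside 3.76% of all genes, and the same 2 genes were without *Fabp6*-/- female pool 2, beside 6.77%.

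*Axin2*, a feedback inhibitor and target of Wnt signalling, had 7.68 and 7.57 in *Fabp2*-/- females, 7.61 and 7.62 in *Fabp2*-/- males, 7.80 and 7.67 in *Fabp6*-/- females and 7.83 and 7.79 in *Fabp6*-/- males. It had 7.55 and 7.35 in *Fabp2*-/-;*Fabp6*-/- females and 7.72 and 7.63 in *Fabp2*-/-;*Fabp6*-/- males, against 7.85 and 7.76 in WT females and 7.63 and 7.81 in WT males. *Fabp2*-/-;*Fabp6*-/- females lay below WT females (-0.36 ± 0.10, limma adjusted p = 0.127) and the males overlapped, with -0.20 ± 0.07 over both sexes (adjusted p = 0.122). *Sox9*, a transcription factor of crypt and Paneth cells, had 6.37 and 6.17 in *Fabp2*-/- females, 6.15 and 6.11 in *Fabp2*-/- males, 5.93 and 5.90 in *Fabp6*-/- females and 5.86 and 5.99 in *Fabp6*-/- males. It had 6.01 and 6.14 in *Fabp2*-/-;*Fabp6*-/- females and 6.20 and 6.01 in *Fabp2*-/-;*Fabp6*-/- males, against 6.18 and 6.04 in WT females and 5.97 and 6.02 in WT males. The differences over both sexes were 0.15 for *Fabp2*-/-, -0.13 for *Fabp6*-/- and 0.04 for *Fabp2*-/-;*Fabp6*-/- (limma adjusted p = 0.499, 0.443 and 0.867), and the groups overlapped.

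The sexes were compared within each genotype and over all 4. Over all genotypes, 31 of 33 cell cycle genes were lower in females than in males with a median of -0.14, against a median of 0.0048 over all genes, while the stem markers had a median of 0.0048 with 3 of 6 below 0. At an unadjusted p under 0.05, 23 cell cycle genes and *Olfm4* passed, each lower in females, beside 12.6% of all genes. 0 members were called by limma, beside 0.176%. At an adjusted p under 0.2 with no limit on the fold, 12 members passed, beside 2.78% of all genes. Without *Fabp6*-/- female pool 2, 31 of 33 cell cycle genes were lower in females (median -0.16) and 25 members passed the unadjusted threshold, 24 lower and 1 higher, beside 11.3% of all genes. Mitosis genes had a median of -0.18 with 17 of 18 below 0, licensing genes one of -0.12 with 6 of 6 and DNA synthesis genes one of -0.12 with 6 of 7.

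The cyclin gene *Ccna2* was lower in females by 0.24 ± 0.05 on the log2 scale (SE, 8 pools each, limma adjusted p = 0.0356). Its partner *Cdk1* had -0.20 ± 0.05 (adjusted p = 0.0722), *Mki67* -0.20 ± 0.06 (0.108), and *Ccnd1* -0.19 ± 0.06 (0.154). *Ccnb2*, *Cdc20*, *Cenpa*, *Nusap1*, *Mad2l1*, *Birc5* and *Top2a*, genes of the mitotic cyclin, the exit from mitosis, the centromere, the spindle and its checkpoint, chromosome segregation and DNA decatenation, had -0.16 to -0.21. *Olfm4* was lower in females of every genotype, with -0.32 in *Fabp2*-/-, -0.24 in *Fabp6*-/-, -0.21 in *Fabp2*-/-;*Fabp6*-/- and -0.18 in WT mice and -0.24 ± 0.04 over all (adjusted p = 0.031). Within a genotype its female pools lay below its male pools in each case. *Ccna2*, *Ccnb2* and *Olfm4* kept an adjusted p under 0.2 without each of the 16 pools in turn. The number of members that passed was 5 to 20 over these settings. It was 20 without *Fabp2*-/- male pool 2 (beside 4.49% of all genes) and 14 without *Fabp6*-/- female pool 2 (2.61%). It was 5 without *Fabp2*-/- male pool 1 (1.38%), *Fabp6*-/- male pool 1 (1.19%) or *Fabp2*-/-;*Fabp6*-/- female pool 2 (1.44%), 6 without *Fabp2*-/- female pool 2 (1.57%) or WT male pool 2 (1.8%) and 7 without *Fabp2*-/-;*Fabp6*-/- male pool 2 (1.93%). Of the marker lists of other cell types, 8 of 9 B cell markers were lower in females (median -0.13). Their mean deviation was 0.92 in *Fabp2*-/- male pool 1, -0.23 to 0.08 in the other male pools and -0.16 to 0.03 in the female pools. All 6 enteroendocrine (0.16) and all 6 gastric markers (0.26) were higher in value, and the absorptive enterocyte markers had a median of 0.01. The part of these markers in the result was not tested.

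Within genotypes, the cell cycle genes had a median of -0.28 in *Fabp6*-/- mice (30 of 33 lower in females), -0.17 in *Fabp2*-/- (32 of 33), -0.08 in *Fabp2*-/-;*Fabp6*-/- (27 of 33) and -0.04 in WT mice (20 of 33). In *Fabp6*-/- mice 20 members passed an unadjusted p under 0.05, each lower in females, beside 7.19% of all genes, and 0 were called by limma, beside 0.407%. There *Ccnb2* had -0.47 ± 0.10 (adjusted p = 0.0447) and *Mki67* -0.49 ± 0.11 (0.0903), and with *Nusap1* and *Bub1* 4 members passed an adjusted p under 0.2 with no limit on the fold, beside 0.572%. In *Fabp2*-/- mice 10 members passed the unadjusted threshold (background 8.16%), in *Fabp2*-/-;*Fabp6*-/- mice 6 (7.71%) and in WT mice 2 (8.1%), and 0 were called by limma in *Fabp2*-/- (0.0824%), *Fabp2*-/-;*Fabp6*-/- (0.0769%) or WT mice (0.236%). Without *Fabp6*-/- male pool 1 or pool 2, 0 of the 4 members passed in *Fabp6*-/- mice (beside 0.0605% and 0.429% of all genes), and without female pool 2, 13 members did (2.07%). Without that female pool, 31 of 33 cell cycle genes were lower in *Fabp6*-/- females with a median of -0.38, 19 members passed an unadjusted p under 0.05, each lower, beside 10.7% of all genes, and 3 were called (*Bub1*, *Top2a*, *Ube2c*), beside 1.1%. Of all genes, 51.2% were lower in *Fabp6*-/- females than males with all pools and 55.1% without that pool. The T cell markers of *Fabp6*-/- females had mean deviations of -0.01 in both pools, against 0.23 to 0.27 in *Fabp6*-/- males (5 of 5 lower in females, 3 at an unadjusted p under 0.05, median -0.21). Enteroendocrine markers had 0.04 to 0.09 in *Fabp6*-/- females, against -0.20 in both pools of *Fabp6*-/- males (6 of 6 higher, 4 at an unadjusted p under 0.05, median 0.31). Absorptive enterocyte markers had 0.00 to 0.11 in *Fabp6*-/- females, against -0.11 to -0.09 in *Fabp6*-/- males, and *Lct*, the lactase gene, rose by 0.64 (limma adjusted p = 0.0135) in *Fabp6*-/- females. Their part in the result was not tested. In all 4 genotypes, 15 of 33 cell cycle genes and 1 of 6 stem markers were lower in females, against 8.99% of all genes. These were 14 of 33 and 1 of 6 without *Fabp6*-/- female pool 2, against 6.99%.

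Further genes of the same pathways were read from lists chosen for their function, with earlier results of these data known. Over both sexes in *Fabp2*-/- mice, 28 of 30 other replication genes were below WT with a median of -0.09 (8 lower at an unadjusted p under 0.05), and 29 of 39 other mitosis genes with a median of -0.07 (16 lower, 1 higher), beside 15% of all genes in either direction. Of 21 other stem cell and Wnt target genes 8 were below WT (median 0.04), and of 14 inhibitors of the cell cycle 10 were (median -0.08). The condensin gene *Smc2* fell by 0.67 ± 0.12 (limma adjusted p = 0.0155) and *Wee1*, the kinase that holds Cdk1 inactive, by 0.56 ± 0.10 (adjusted p = 0.0119) in *Fabp2*-/- against WT males. *Bmi1*, a chromatin repressor of stem cells, rose by 0.58 ± 0.19 in *Fabp2*-/-;*Fabp6*-/- against WT males (adjusted p = 0.149). Between the sexes over all genotypes, 33 of 39 other mitosis genes were lower in females (median -0.10, 20 at an unadjusted p under 0.05, beside 12.6% of all genes), as were 22 of 30 other replication genes (median -0.08), and 11 of 21 other stem cell genes (median -0.0020). *Cep55*, a protein of cell separation, fell by 0.57 ± 0.13 in *Fabp6*-/- females against *Fabp6*-/- males (adjusted p = 0.0961).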

How the data were processed

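Gene expression in the small intestine was measured in 16 pools of RNA on 430A and 430B arrays (32 arrays). The values deposited by the authors were log2 signals made with RMA (background-corrected, quantile-normalized, summarised per probe set), for which the submitters' processing notes and the methods give no version. Of the probe sets whose annotation held 1 Entrez gene, that with the widest interquartile range over the 16 arrays stood for its gene on that chip. Genes present on both chips entered a count 1 time, and medians of lists used 430A where present. On each chip, limma 3.58.1 (R 4.3.3) fitted 1 mean for each of the 8 groups, with 8 residual degrees of freedom and two-sided tests. Benjamini-Hochberg adjustment ran over all genes of a chip in each of 17 comparisons. The number of arrays limits the precision. The scripts were tested on simulated data.

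The members and lists were chosen with earlier results of these data known. Values in every pool are given for the stem markers, for each called member and for the 2 members of each cell cycle class with the largest difference over both sexes. *Mki67*, *Cdk1* and other genes named beside them fall outside that rule and were chosen after their values were seen. Replicate numbers did not pair the pools. Alternatives were other probe sets, filters, thresholds, samples in the fit, a replicate block and each pool left out.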

Additional observations from a re-analysis of the deposited data

How the results depend on the processing

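No named gene with a call changed direction under the alternatives run, while the stem marker median between the sexes over all genotypes ranged from -0.01 to 0.02 with 1 pool left out. Of the counts of called members under the alternatives, 265 stayed within 1.5 times their value and 25 moved. Most comparisons had 0 called members to begin with, and a count that stayed was then again 0. Of the list medians, 111 moved by less than the spread between pools and 1 by more. This was the median of the stem markers in *Fabp2*-/-;*Fabp6*-/- mice over both sexes, -0.17 with the probe set of highest mean signal. With that choice 0 members were called in *Fabp2*-/-;*Fabp6*-/- mice over both sexes, because *Ccnd1* had -0.48. At an FDR under 0.05, 0 members were called in *Fabp2*-/- females. With only the arrays compared, 1 member, *Rrm2*, was called between the sexes in *Fabp6*-/- mice. With no limit on the fold, added after the data were seen, 6 members passed in *Fabp2*-/- females. The count was 2 for *Fabp6*-/- in females (beside 1.56% of all genes) and 2 in males (1.72%), and 3 for *Fabp2*-/-;*Fabp6*-/- in females (4.18%) and 2 in males (6.66%). It was 10, 3 and 8 in *Fabp2*-/-, *Fabp6*-/- and *Fabp2*-/-;*Fabp6*-/- mice over both sexes, 4 between the sexes in *Fabp6*-/- mice and 12 over all genotypes.

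With 1 pool left out, the call count ranged from 0 to 2 in *Fabp2*-/- females, 0 to 1 in *Fabp2*-/- males and over both sexes of *Fabp2*-/-, 0 to 4 in *Fabp6*-/- females, 0 to 1 in *Fabp6*-/- males, 1 to 2 in *Fabp2*-/-;*Fabp6*-/- males, 0 to 2 between the sexes in *Fabp2*-/- and 0 to 3 in *Fabp6*-/- mice. A group left with 1 pool was assumed to vary like the others. The counts at the ends came without *Fabp6*-/- female pool 2 (4 members against WT, and *Bub1*, *Top2a* and *Ube2c* between the sexes), without *Fabp2*-/- male pool 1 (*Mcm5* in males and over both sexes), without *Fabp2*-/- male pool 2 (*Mcm5* and *Rrm2* between the sexes), without WT male pool 2 (*Bub1* in *Fabp6*-/-, *Cenpa* in *Fabp2*-/-;*Fabp6*-/- males) without *Fabp2*-/- female pool 1 (*Mcm5*, *Mki67*) or WT female pool 2 (*Mcm5*, *Tk1*) in *Fabp2*-/- females, without *Fabp6*-/- male pool 1 (*Cenpa* in *Fabp6*-/- males), and without WT female pool 1, where *Mcm5* in *Fabp2*-/- females had -0.50 (limma adjusted p = 0.222). The replicate block left 1 member called in *Fabp2*-/- females, as without it, and changed no other call. Same-numbered pools of different groups correlated at -0.26 to 0.34, with 1 of 28 pairs over 0.1. The cause of these changes was not tested. Dim probe sets (31 of 90 below a mean of 6) limit what can be read for genes such as *Foxm1*, *Tyms* and *Ascl2*.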
